A study of Mus musculus with 9 samples.

Results

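Glycolysis and the response to low oxygen were followed through 41 named mouse genes, out of 35498 genes with summed counts, in the embryonic cortex at E13.5. The genes were taken by name: 4 glucose and monocarboxylate transporters, 14 glycolytic enzymes, 5 genes of the lactate and pyruvate branch with the PFKFB regulators, 6 HIF subunits and oxygen sensors, and 12 other hypoxia-induced genes. There were 3 groups of 3 C57Bl/6 libraries. DKO is labelled Smarca1 -/- with 1 Cre allele (Cre +/-) and is named as the Smarca5 and Smarca1 double knockout. Smarca1 KO is labelled Smarca1 -/- and Cre -/-, so DKO and Smarca1 KO share the Smarca1 deletion. WT is Smarca1 +/+ and Cre -/-. The sources used here do not give the Cre driver, the deleted exons or the Smarca5 genotype outside DKO. Nor do the labels say that replicates come from separate embryos: the p-values then reflect only the scatter among these libraries, which may be technical.

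Glycolysis splits glucose into pyruvate, and lactate dehydrogenase turns pyruvate into lactate. When oxygen is low, the prolyl hydroxylases Egln1 and Egln3 no longer mark HIF alpha subunits for destruction by Vhl, and HIF dimers with Arnt raise transcription of glucose transporters, glycolytic enzymes and genes such as Vegfa, Bnip3 and Ddit4. In the developing cortex, dividing progenitors rely on glycolysis and neurons on oxidative metabolism, and several steps have isozymes or splice forms that differ between these cells.

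HIF dimers bind the core letters ACGTG or GCGTG. The 250 bases before the RefSeq transcription start (GRCm38.p6) are shown for the 6 members with the smallest adjusted p among those that passed the test below and have a RefSeq window. Matches to ACGTG or GCGTG on either strand are in capitals, and every sequence reads 5′ to 3′ on the strand of its gene.
Pfkl, chr10:78009808-78010057, minus strand: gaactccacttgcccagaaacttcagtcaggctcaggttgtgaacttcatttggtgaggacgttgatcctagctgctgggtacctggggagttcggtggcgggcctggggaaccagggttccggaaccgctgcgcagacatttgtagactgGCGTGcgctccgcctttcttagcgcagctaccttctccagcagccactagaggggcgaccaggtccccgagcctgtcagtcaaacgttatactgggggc
Pfkp, chr13:6648772-6649021, minus strand: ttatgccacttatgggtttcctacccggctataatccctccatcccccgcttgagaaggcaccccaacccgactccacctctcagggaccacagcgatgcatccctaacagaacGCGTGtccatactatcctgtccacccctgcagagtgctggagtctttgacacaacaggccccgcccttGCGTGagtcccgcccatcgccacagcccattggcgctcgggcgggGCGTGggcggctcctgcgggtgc
Pkm, chr9:59656326-59656575, plus strand: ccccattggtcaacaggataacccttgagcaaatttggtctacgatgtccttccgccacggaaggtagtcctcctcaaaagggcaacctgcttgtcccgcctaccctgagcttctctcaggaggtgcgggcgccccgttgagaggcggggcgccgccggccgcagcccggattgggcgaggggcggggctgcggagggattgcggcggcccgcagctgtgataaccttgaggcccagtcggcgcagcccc
Hif1a, chr12:73907617-73907866, plus strand: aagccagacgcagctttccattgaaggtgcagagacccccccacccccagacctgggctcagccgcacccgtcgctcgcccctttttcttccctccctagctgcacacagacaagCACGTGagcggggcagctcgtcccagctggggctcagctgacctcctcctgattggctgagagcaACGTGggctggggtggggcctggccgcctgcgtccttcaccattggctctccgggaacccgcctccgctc
Ddit4, chr10:59951771-59952020, minus strand: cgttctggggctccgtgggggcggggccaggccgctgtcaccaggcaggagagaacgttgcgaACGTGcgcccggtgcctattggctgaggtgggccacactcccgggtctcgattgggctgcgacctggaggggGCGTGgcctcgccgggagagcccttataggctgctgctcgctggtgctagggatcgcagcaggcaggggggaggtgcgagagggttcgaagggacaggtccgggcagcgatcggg
Ankrd37, chr8:45999851-46000100, minus strand: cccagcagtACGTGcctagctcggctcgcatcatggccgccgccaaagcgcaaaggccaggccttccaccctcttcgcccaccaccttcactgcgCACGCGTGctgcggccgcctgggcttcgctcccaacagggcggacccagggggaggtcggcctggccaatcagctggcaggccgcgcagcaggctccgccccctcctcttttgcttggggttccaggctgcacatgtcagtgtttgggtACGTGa
Ankrd37, a HIF target whose protein carries ankyrin repeats, held 4 matches, the most of these windows, of which the GCGTG matches on opposite strands overlap in CACGCGTG. Hif1a held 3 ACGTG matches, and a pair of them is the same palindrome CACGTG read on both strands, which is also the site of other basic helix-loop-helix factors. Pfkp held 3 GCGTG matches, Ddit4 held 1 match to each core, Pfkl held 1 GCGTG match and the Pkm window held none. Of 38 members with a window, 31 (81.6%) held at least 1 match, against 38.6% of all 32817 RefSeq windows of the same length. These shares are not like for like. Each member gave a single window, nearest the start of its transcript with most counts, and many members were named as hypoxia-induced. The other share pools every RefSeq start, whether or not its gene was expressed. The median GC content was 62.8% over the windows of members and 52.4% over all windows. A match describes letters and is not evidence of binding. Slc2a3, Bhlhe40 and Epas1 have no window in the table.

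Counts summed over genes were 27466046 to 46007527 per library. Smarca5 RNA was 84.4, 79.2 and 77.2 CPM (TMM-scaled counts relative to library size) in DKO, against 246, 243 and 212.2 CPM (Smarca1 KO) and 267, 271 and 262 CPM (WT). Smarca1 RNA did not separate the groups: it was 37.9, 38.8 and 38.4 CPM (DKO), 42.3, 35.3 and 43.8 CPM (Smarca1 KO) and 37.8, 36.4 and 37.2 CPM (WT). The deleted exons are not known here, so summed Smarca1 RNA is no check of those labels. None of the marker genes listed for radial glia (12) or for neurons (10) was at 0 in all libraries, and their sums were 3148 to 3792 and 4891 to 6328 CPM.

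Members were compared with each other in WT per transcript length, as TPM (length-corrected transcript abundance, mean ± SD, n = 3). The highest were Gapdh (1821 ± 46.1 TPM) and Pkm (1161 ± 6.61 TPM), which catalyse the first oxidation of the pathway and its last step. The level of Gapdh is uncertain, since it shares sequence with copies and much of its TPM lay in short transcripts, Gapdh-206 (565 bases) and Gapdh-208 (483 bases). In counts, Gapdh was 598 ± 14.9 CPM and Pkm 1376 ± 5.37 CPM in WT. Ldha, which makes lactate (424 ± 19.2 TPM), Pgk1 (373 ± 14.7 TPM) and Pgam1 (348 ± 7.88 TPM) came next. The ubiquitous transporter Slc2a1 was at 70.3 ± 4.24 TPM and the neuronal transporter Slc2a3 at 12.5 ± 1.19 TPM. Hk1, the hexokinase of most tissues, was at 41.6 ± 1.41 TPM and the inducible Hk2 at 14.8 ± 0.135 TPM. Hif1a was at 82.3 ± 0.607 TPM and Epas1, which encodes HIF-2 alpha, at 11.3 ± 0.559 TPM. The sensor Egln1 was at 59.7 ± 2.42 TPM and Egln3 at 8.66 ± 0.421 TPM. The lowest were Adm (2.41 ± 0.131 TPM), which encodes a vasodilator peptide, and Car9 (0.303 ± 0.0853 TPM), which encodes a carbonic anhydrase that is a standard readout of severe hypoxia. Car9 had 2 to 8 counts per library and was below the level tested; the other 40 members were tested.

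In DKO against Smarca1 KO, 4 of 40 members passed the test (10%), against 4.39% of 15773 genes. Slc2a3 and Pfkl rose (1.73% of all genes rose), and Bhlhe40 and Ddit4 fell (2.66% fell). In DKO against WT, 9 of 40 passed (22.5%), against 12% of all genes. Slc2a3, Hk1, Pfkp, Pfkfb3 and Ankrd37 rose (5.61% of all genes rose), and Pkm, Hif1a, Bhlhe40 and Ddit4 fell (6.35% fell). In Smarca1 KO against WT none of 40 passed, against 0.336% of all genes (0.139% rose and 0.197% fell), with 10 members (25%) at an unadjusted p under 0.05, against 18.9% of all genes. The test was edgeR's quasi-likelihood test on all 9 libraries, with Benjamini-Hochberg adjustment over 15773 genes and calls at an adjusted p under 0.05. The median log2 fold change of members was 0.11 in DKO against Smarca1 KO (all genes 0.00), 0.01 in DKO against WT (all genes 0.01) and −0.06 in Smarca1 KO against WT (all genes 0.01). Groups did not overlap for 11 members (27.5%), 18 members (45%) and 18 members (45%) in these comparisons, against 20.5%, 41.3% and 26.2% of all genes. The 3 comparisons share libraries. Members were chosen with earlier results of these data known, so setting their shares against those of all genes is no independent comparison. In bulk tissue, fewer cells of a type and less RNA per cell cannot be told apart.

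**Figure D1:**
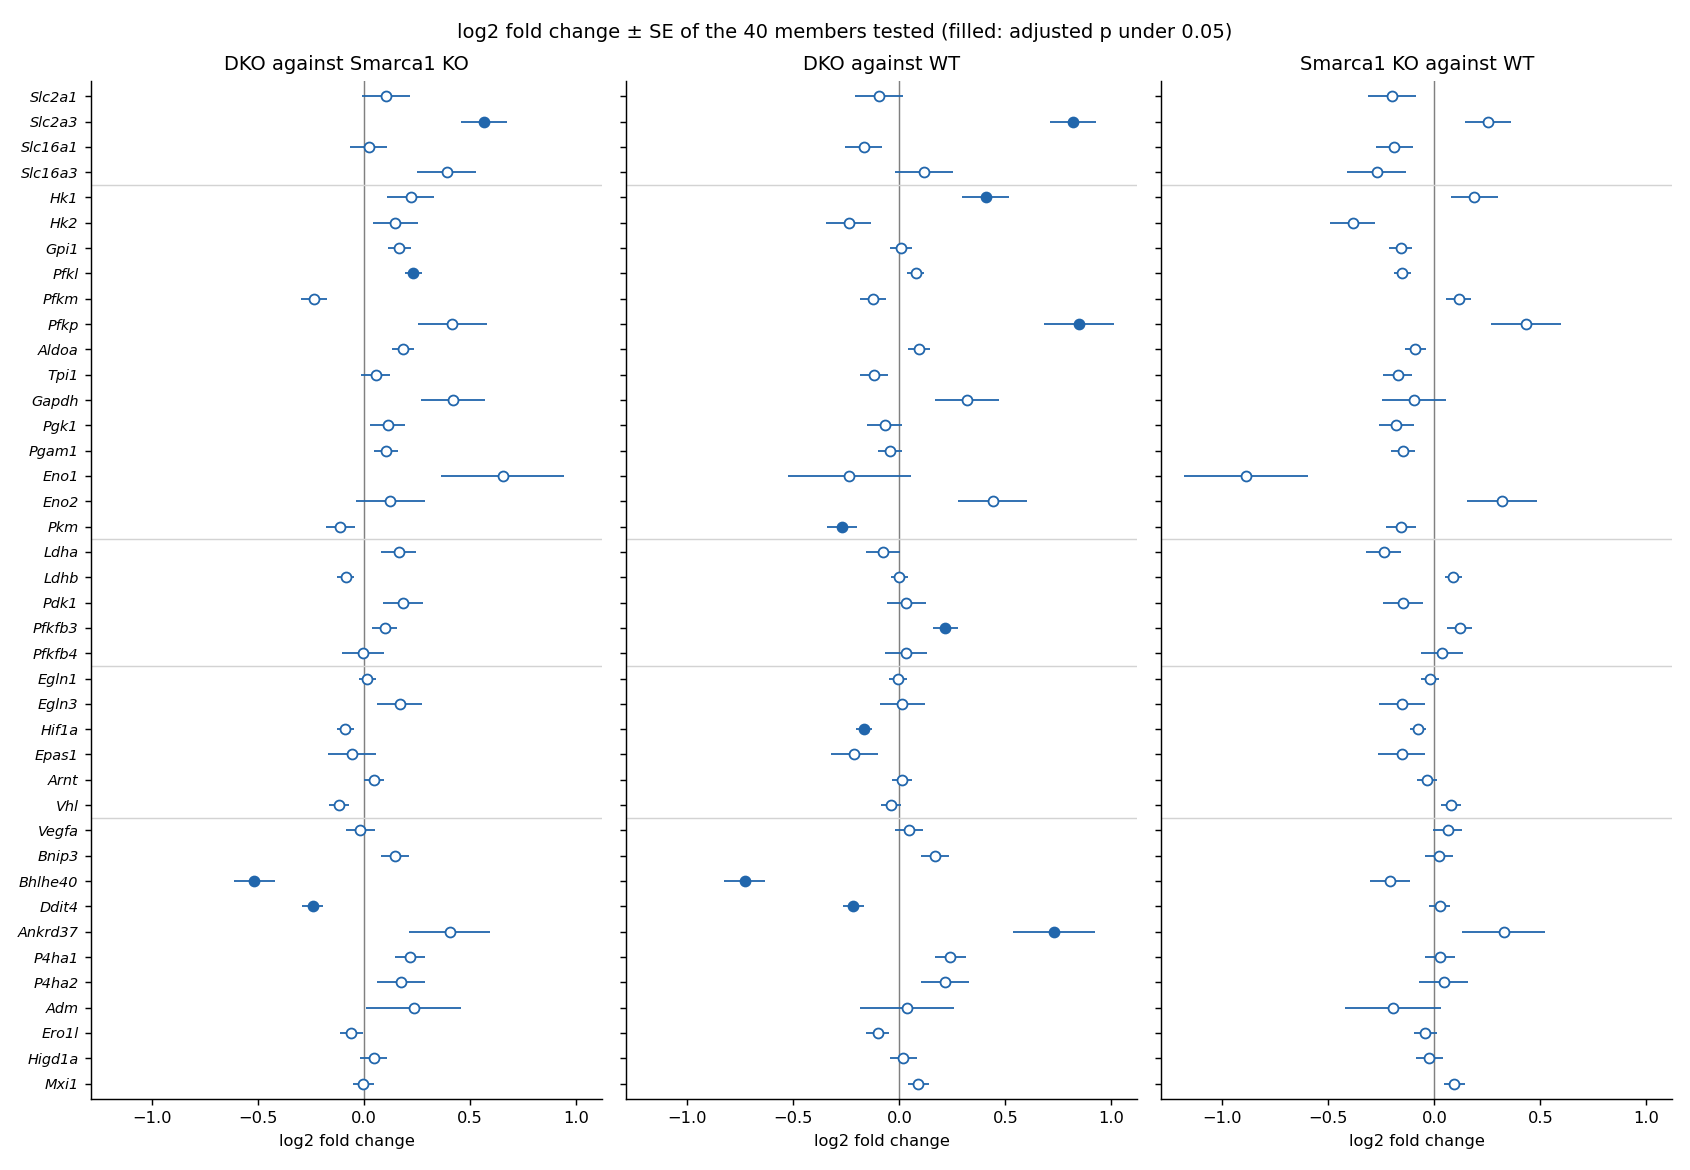
log2 fold change (x axis) with its SE for each of the 40 members tested (y axis, by role from transporters at the top to hypoxia-induced genes at the bottom), 1 panel per comparison. Filled points passed the test: 4 in DKO against Smarca1 KO, 9 in DKO against WT and none in Smarca1 KO against WT.

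How many members passed depended on single libraries. In DKO against Smarca1 KO the count of 4 went to 1 without DKO replicate 2 or without Smarca1 KO replicate 2, and to 2 without DKO replicate 3. With Smarca1 KO replicate 3 left out, 6 passed, with Hk1 and Pfkp added. In DKO against WT the count of 9 went to 2 without DKO replicate 2 or without any 1 of the WT libraries, and to 4 without DKO replicate 3. Slc2a3 and Bhlhe40 in DKO against WT passed with each of the 9 libraries left out in turn. Y-linked genes, summed, were 238.5 to 247.1 CPM in DKO, 253.2 to 267.5 CPM in Smarca1 KO and 258 to 265.8 CPM in WT. With their level as a covariate no member passed in any comparison, and the groups account for 0.771 of that covariate's variance (R2), so the covariate and the genotype cannot be told apart.

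**Figure D2:**
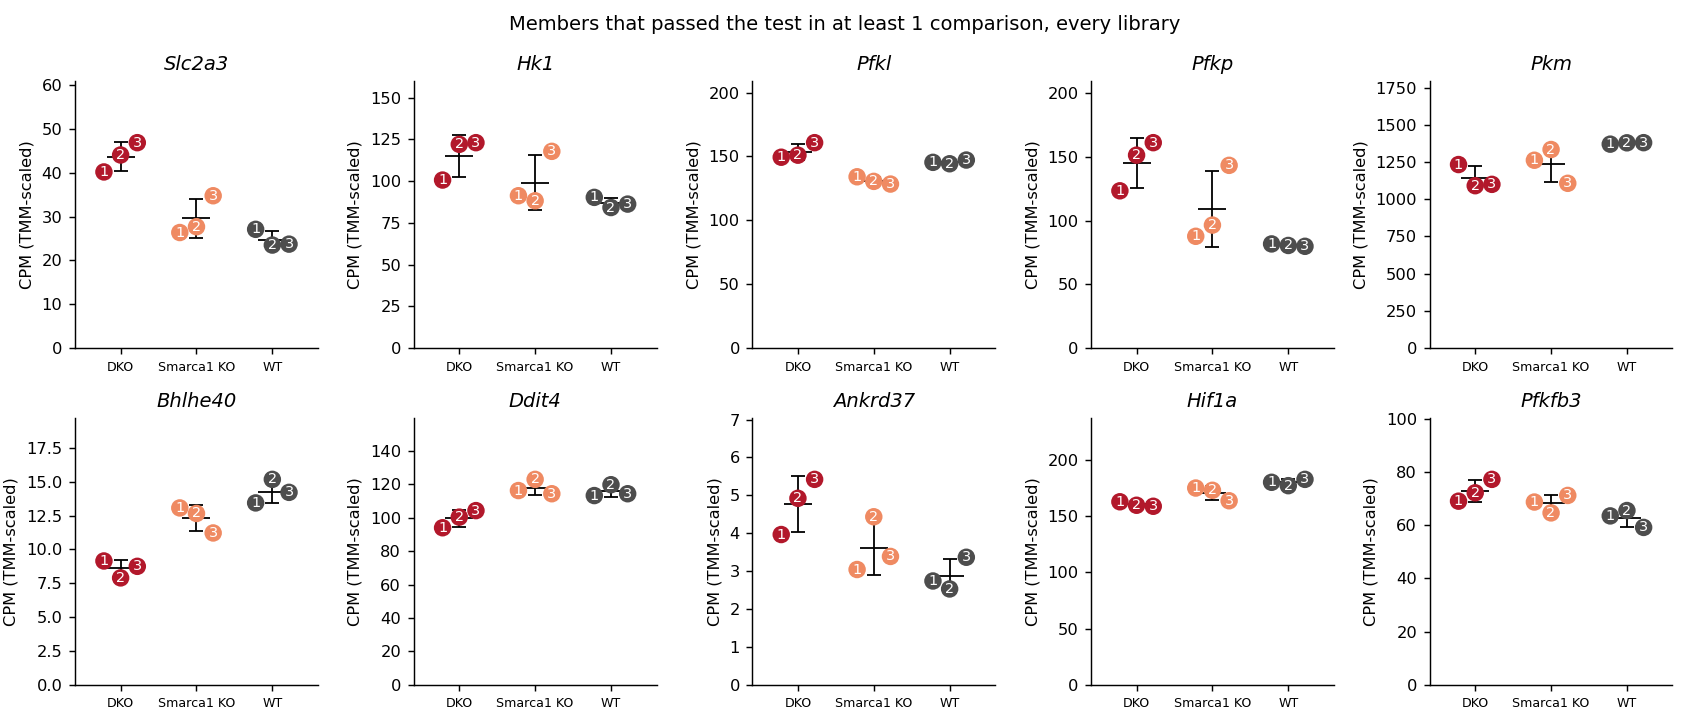
Expression in TMM-scaled CPM (y axis, from 0) of the 10 members that passed the test in at least 1 comparison, by group (x axis); numbered points are the libraries, bars the mean ± SD (n = 3). Slc2a3 lies above, and Bhlhe40 and Ddit4 lie below, both other groups in every DKO library, while Smarca1 KO replicate 3 reaches the DKO range for Hk1, Pfkp and Pkm.

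Of the 4 transporters, 1 rose in DKO against either other group and none fell (4.39% of all genes passed against Smarca1 KO and 12% against WT). The median log2 fold change of the 4 was 0.25 against Smarca1 KO and 0.01 against WT. The one that rose was Slc2a3, which encodes the high-affinity neuronal transporter GLUT3. It was 40.2, 44.1 and 46.9 CPM (DKO), 26.4, 27.7 and 34.8 CPM (Smarca1 KO) and 27.1, 23.5 and 23.7 CPM (WT). All DKO libraries lay above all others. Slc2a3 rose against Smarca1 KO (log2 fold change of 0.56 ± 0.11 SE, adjusted p = 0.0198, edgeR) and against WT (0.82 ± 0.11 SE, adjusted p = 0.00334). The rise of Slc2a3 against Smarca1 KO did not pass without DKO replicate 2 or 3, without Smarca1 KO replicate 1 or 2, without replicates 1 of both groups, with only the 2 groups fitted or with effective-length offsets; over the 9 omissions its log2 fold change was 0.49 to 0.69. Slc2a1, which encodes the transporter of the blood-brain barrier and red cells, was 107, 96.5 and 95.2 CPM (DKO), 113, 84.9 and 80.1 CPM (Smarca1 KO) and 102, 112 and 105 CPM (WT). Its groups overlapped and it passed in no comparison. The share of Slc2a3 in the summed TPM of both transporters was 24.2 ± 2.87% in DKO, against 20.9 ± 5.61% in Smarca1 KO and 15.1 ± 1.10% in WT. DKO and WT did not overlap in this share, and Smarca1 KO overlapped with both. Slc16a1, which encodes the monocarboxylate carrier MCT1, and Slc16a3, which encodes the lactate exporter MCT4, did not pass; Slc16a3 was 8.18, 9.71 and 8.47 CPM in DKO, above the 7.67, 7.03 and 5.36 CPM in Smarca1 KO. For Slc16a3, WT was at 7.68 to 8.53 CPM and overlapped with DKO. Slc16a1 was lower in every DKO library (30.9 to 32.5 CPM) than in WT (33.0 to 36.9 CPM).

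Of the 14 glycolytic enzymes, 1 rose and none fell against Smarca1 KO, and 2 rose and 1 fell against WT, with medians of 0.16 and −0.02. Among all genes, 4.39% and 12% passed in these comparisons. At an unadjusted p under 0.05, in either direction, were 7 enzymes (50%, all genes 18.4%) and 5 enzymes (35.7%, all genes 31%). The median of 0.16 counts Gapdh (0.42) and Eno1 (0.65) alone, which were 0.04 and −0.06 with near-identical copies summed. In the upper part of the pathway, the 3 phosphofructokinase isozymes did not share a direction. Pfkp, the platelet-type phosphofructokinase that is prominent in brain, was 124, 152 and 161 CPM (DKO), 87.8, 96.6 and 144 CPM (Smarca1 KO) and 81.8, 80.6 and 79.9 CPM (WT). It rose in DKO against WT (log2 fold change of 0.85 ± 0.16 SE, adjusted p = 0.0143, edgeR). DKO against Smarca1 KO overlapped through Smarca1 KO replicate 3 and did not pass (0.41 ± 0.16 SE, adjusted p = 0.211), and without that library Pfkp passed (0.66, adjusted p = 0.0109). The rise of Pfkp against WT did not pass without DKO replicate 2 or 3 or without any 1 of the WT libraries (log2 fold change 0.76 to 0.95 over the 9 omissions).
Pfkl, the liver-type enzyme, was 149, 151 and 161 CPM (DKO), 134, 131 and 128 CPM (Smarca1 KO) and 145, 144 and 147 CPM (WT). The DKO libraries lay above all others by a narrow margin. Pfkl rose against Smarca1 KO (0.23 ± 0.04 SE, adjusted p = 0.0133) and not against WT (0.08 ± 0.04 SE, adjusted p = 0.214); the rise did not pass without DKO replicate 3, with only the 2 groups fitted or with effective-length offsets.
Pfkm, the muscle-type enzyme, was 101, 108 and 111 CPM (DKO), 116, 124 and 136 CPM (Smarca1 KO) and 117, 116 and 114 CPM (WT). The DKO libraries lay below all others, and Pfkm passed neither against Smarca1 KO (−0.24 ± 0.06 SE, adjusted p = 0.0621) nor against WT (−0.12 ± 0.06 SE, adjusted p = 0.199). The fall of Pfkm against Smarca1 KO passed with DESeq2 (adjusted p = 0.0137), without Smarca1 KO replicate 1 (adjusted p = 0.0297) and without replicates 1 of both groups (adjusted p = 0.0499).

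As shares of the summed TPM of the 3 phosphofructokinases, Pfkp was 30.0 ± 1.20% in DKO, 24.2 ± 3.94% in Smarca1 KO and 18.3 ± 0.594% in WT. Pfkm was 30.4 ± 0.750% in DKO, against 38.4 ± 1.08% in Smarca1 KO and 38.4 ± 0.137% in WT. The DKO libraries lay above all others in the Pfkp share and below all others in the Pfkm share. For Pfkp the margin was narrow, at 28.68% in DKO replicate 1 against 28.56% in Smarca1 KO replicate 3. With 3 libraries against 3 an exact permutation test cannot go below a 2-sided p of 0.1, which both shares reach in DKO against either group. Most Pfkp counts were assigned to 2 transcripts. They were Pfkp-212 (8681 bases, 106 ± 14.2 CPM in DKO, 58.7 ± 2.08 CPM in WT) and Pfkp-202 (2680 bases, 30.5 ± 6.57 CPM in DKO, 15.7 ± 0.388 CPM in WT). The Pfkp share sums the TPM of these transcripts, which differ in length, and may therefore be off as a level in every group.

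At the first step of the pathway, Hk1 was 101, 122 and 123 CPM (DKO), 91.3, 88.3 and 118 CPM (Smarca1 KO) and 90.3, 84.2 and 86.3 CPM (WT). The DKO libraries lay above all WT libraries, and Smarca1 KO replicate 3 lay within the DKO range. Hk1 rose against WT (log2 fold change of 0.41 ± 0.11 SE, adjusted p = 0.0438, edgeR) and did not pass against Smarca1 KO (0.22 ± 0.11 SE, adjusted p = 0.341). The rise of Hk1 did not pass with effective-length offsets, nor without DKO replicate 2 or 3 or any 1 of the WT libraries (0.35 to 0.50 over the 9 omissions). Hk2 was 38.4, 36.8 and 38.2 CPM (DKO), 37.7, 37.5 and 27.1 CPM (Smarca1 KO) and 43.9, 44.7 and 45.3 CPM (WT). All DKO and Smarca1 KO libraries lay below WT, and neither difference passed (DKO against WT −0.24 ± 0.11 SE with adjusted p = 0.158, Smarca1 KO against WT −0.38 ± 0.11 SE with adjusted p = 0.14). Without Smarca1 KO replicate 3, Hk2 passed in DKO against WT (adjusted p = 0.0059). Gpi1, Aldoa and Tpi1, which encode the isomerase, aldolase and triose phosphate isomerase of this part, passed in no comparison, with log2 fold changes between −0.17 and 0.18; DESeq2 called Aldoa in DKO against Smarca1 KO (0.18, adjusted p = 0.0263).

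**Figure D3:**
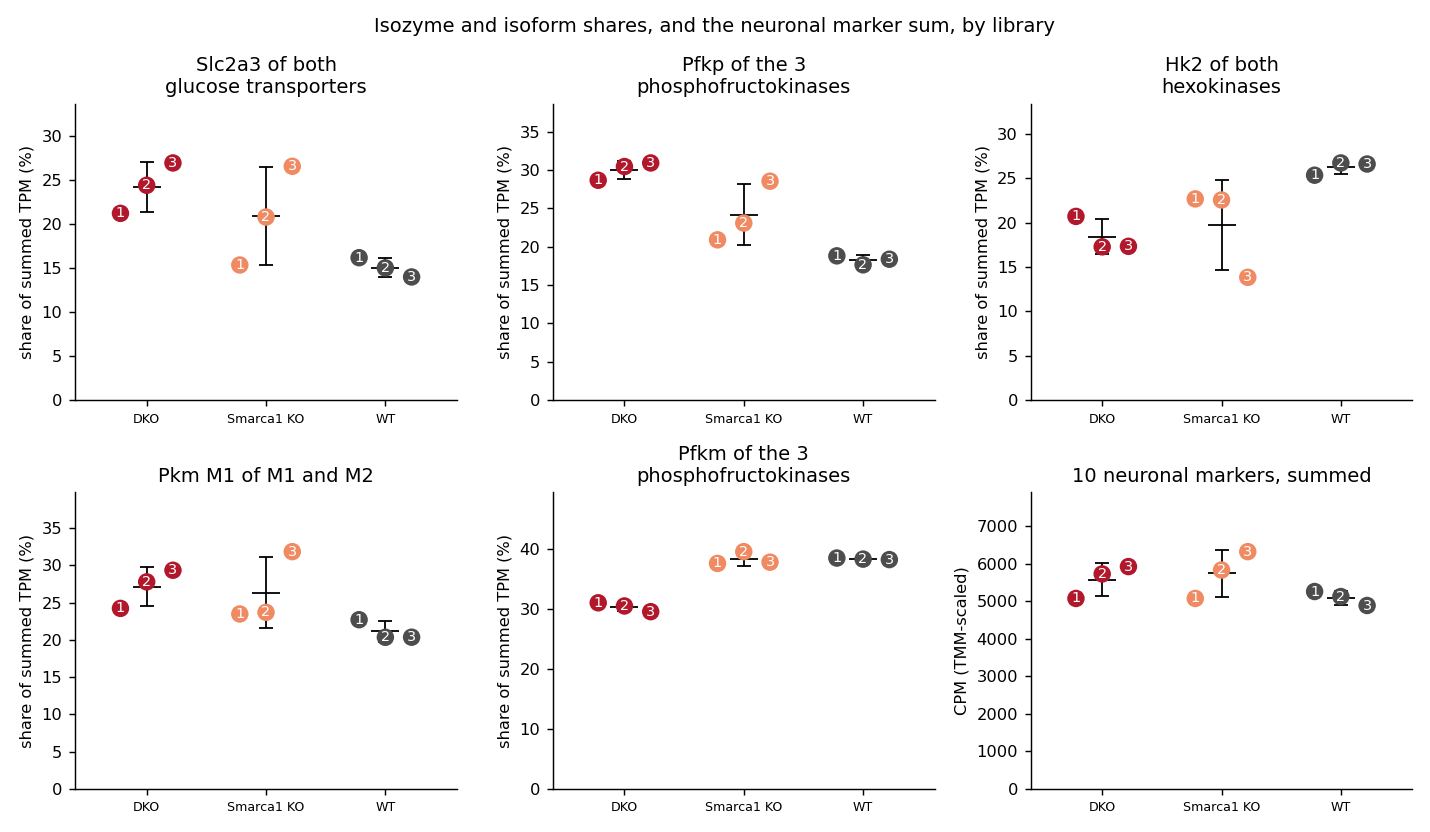
Isozyme and isoform shares in percent of summed TPM (first 5 panels, y axes from 0) and the summed CPM of 10 neuronal markers (last panel), by group (x axes); numbered points are libraries and bars the mean ± SD (n = 3). DKO lies apart from WT in the 5 shares drawn. Smarca1 KO replicate 3 sits within or beyond the DKO range in 3 of them and has the highest neuronal sum of 6328 CPM. Of the shares not drawn, Pfkl of the phosphofructokinases also lay apart (39.6 ± 0.636% in DKO, 43.3 ± 0.681% in WT). DKO and WT overlapped in Ldhb of Ldha and Ldhb (41.8 ± 1.51% and 40.2 ± 0.923%). They also overlapped in Epas1 of Hif1a and Epas1 (11.8 ± 0.729% and 12.1 ± 0.467%). Tubb3, Dcx and Map2 make up most of that sum.

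In the lower part, Pkm fell in DKO against WT. Pkm, which makes pyruvate, was 1233, 1091 and 1100 CPM (DKO), 1262, 1334 and 1107 CPM (Smarca1 KO) and 1370, 1379 and 1380 CPM (WT). Every DKO and Smarca1 KO library lay below every WT library. The log2 fold change of DKO against WT was −0.27 (± 0.07 SE, adjusted p = 0.036, edgeR), and DKO against Smarca1 KO did not pass (−0.11 ± 0.07 SE, adjusted p = 0.442). The fall of Pkm did not pass without DKO replicate 2 or 3 or any 1 of the WT libraries (−0.33 to −0.24 over the 9 omissions).
Pkm is spliced to M1, the form of differentiated cells, or to M2, the form of dividing cells. On GRCm38, plus strand, the M1 exon (chr9:59675029-59675195) lies upstream of the M2 exon (chr9:59675568-59675734), and each is 167 bases long. Pkm-201, with the M2 exon, was at 730, 626 and 618 TPM in DKO, 765, 786 and 611 TPM in Smarca1 KO, and 834, 852 and 852 TPM in WT. Pkm-202, with the M1 exon, was at 233, 241 and 257 TPM in DKO, 235, 244 and 286 TPM in Smarca1 KO, and 245, 218 and 218 TPM in WT. The M1 share of the 2 forms was 24.2, 27.8 and 29.4% in DKO, 23.5, 23.7 and 31.8% in Smarca1 KO, and 22.7, 20.4 and 20.4% in WT. Both knockout groups lay above WT in every library, and M2 was the major form in all 9.
At the level of transcripts neither form passed in DKO against WT (M2 −0.34 ± 0.11 SE, adjusted p = 0.253; M1 0.12 ± 0.08 SE, adjusted p = 0.569). Of 157 member transcripts tested, 3 passed in DKO against WT, against 0.327% of 50753 transcripts, and none passed in the other comparisons (0.132% of all transcripts in DKO against Smarca1 KO and 0.0296% in Smarca1 KO against WT). They were Pkm-205 (−0.83 ± 0.08 SE, adjusted p = 0.017), the main transcript of Bhlhe40 (−0.72, adjusted p = 0.0421) and the main transcript of Slc2a3 (0.93, adjusted p = 0.0441). Pkm-205 is a minor transcript, at 19.7 ± 0.713 CPM in DKO and 35.1 ± 2.29 CPM in WT.

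Gapdh and Eno1 share stretches of near-identical sequence with pseudogenes and retrogene copies, so both genes are reported as uncertain. Within DKO, and for Eno1 also within WT, the libraries high in the gene were low in the summed copies; within Smarca1 KO, replicate 3 was the lowest in both. Gapdh was 889, 800 and 553 CPM (DKO), 585, 611 and 482 CPM (Smarca1 KO) and 601, 582 and 611 CPM (WT). DKO replicates 1 and 2 stood above all other libraries and DKO replicate 3 among them. Its 41 near-identical copies, mainly Gm13394 and Gm7336, held 684, 606 and 879 CPM (DKO), 907, 936 and 774 CPM (Smarca1 KO) and 946, 1021 and 1056 CPM (WT). In DKO, Gm13394 was at 463, 407 and 744 CPM, low where Gapdh was high, and Gm7336 was at 219, 197 and 133 CPM, high where Gapdh was high. Summed with its copies Gapdh was 1568, 1406 and 1428 CPM (DKO), 1488, 1552 and 1250 CPM (Smarca1 KO) and 1546, 1609 and 1674 CPM (WT). The log2 fold change in DKO against WT was 0.32 (SE 0.15, adjusted p = 0.181) for Gapdh alone and −0.13 (SE 0.08, adjusted p = 0.271) for the sum. Without DKO replicate 3 Gapdh alone passed as higher in DKO (0.50, adjusted p = 0.0297 against WT; 0.59, adjusted p = 0.0215 against Smarca1 KO), and with effective-length offsets it passed as lower than WT (−0.29, adjusted p = 0.0422). Per length, as TPM, its means were 1486 in DKO, 1623 in Smarca1 KO and 1821 in WT, the opposite order to CPM in DKO against WT. DKO replicates 1 and 2 also differed in transcripts: Gapdh-201 and Gapdh-202 held 149 and 79.9 CPM, and 86.6 and 97.6 CPM, in these libraries, against at most 1.19 CPM in any other.

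Eno1, the enolase of most cells, was 351, 304 and 176 CPM (DKO), 185, 186 and 157 CPM (Smarca1 KO) and 194, 385 and 400 CPM (WT). Each group other than Smarca1 KO held both high and low libraries. With the copies Eno1b and Gm4735 the sums were 566, 496 and 565 CPM (DKO), 595, 594 and 502 CPM (Smarca1 KO) and 633, 627 and 649 CPM (WT), a narrower range in which WT lay above both. The log2 fold change of DKO against Smarca1 KO was 0.65 (SE 0.29, adjusted p = 0.269) for Eno1 alone and −0.06 (SE 0.07, adjusted p = 0.758) for the sum, so the direction differed between them. In DKO against WT the sum did not pass (−0.23 ± 0.07 SE, adjusted p = 0.0676). Eno2, the neuronal enolase, was 30.0, 42.6 and 45.8 CPM (DKO), 33.2, 31.8 and 44.1 CPM (Smarca1 KO) and 30.4, 26.7 and 30.2 CPM (WT). DKO replicate 1 lay with WT, Eno2 did not pass against WT (0.44 ± 0.16 SE, adjusted p = 0.105), and without DKO replicate 1 it did (0.60, adjusted p = 0.0229). Pgk1-rs7, a near-identical copy of Pgk1, was at 9.30, 9.18 and 7.84 CPM (DKO) and 7.69, 8.59 and 6.27 CPM (WT), and was listed at 0 in every Smarca1 KO library. Pgk1 and Pgam1 passed in no comparison, with log2 fold changes between −0.18 and 0.11. Of their 31-base stretches, Pgk1 (54.7%), Pgam1 (37.1%) and Ldhb (33.0%) shared more with other genes than Gapdh (28.1%) and Eno1 (28.5%). Their copies held fewer counts, at 0 for Pgam1, at most 9.31 CPM for Pgk1 and 7.48 to 19.8 CPM for the Ldhb copy Gm5514. In DKO, Gm5514 was 9.04, 7.48 and 17.8 CPM, so Ldhb carries the same caution.

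**Figure D4:**
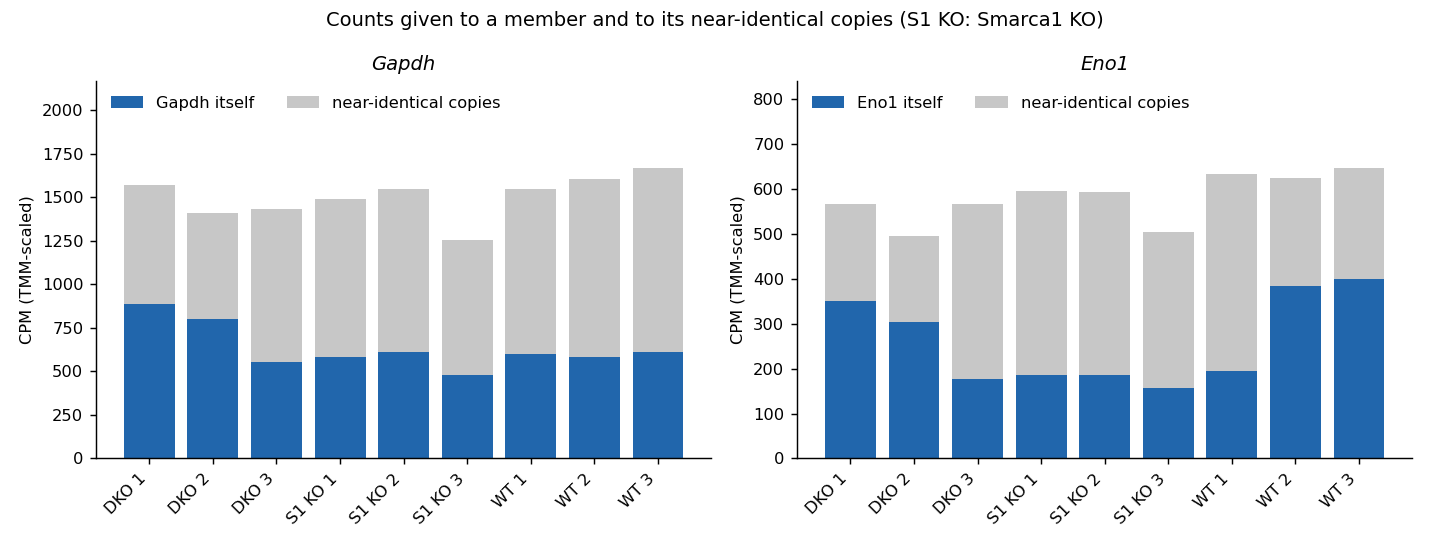
TMM-scaled CPM (y axis, from 0) given to Gapdh and Eno1 themselves (blue) and to their near-identical copies (grey) in each library (x axis). The blue part differs between libraries of 1 group (Gapdh 889 and 553 CPM within DKO, Eno1 194 and 400 CPM within WT), and the stacked total differs less.

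Of the 5 genes of the lactate and pyruvate branch with the PFKFB regulators, none passed in DKO against Smarca1 KO (median 0.10) and 1, Pfkfb3, rose against WT (median 0.03). Among all genes, 4.39% and 12% passed in these comparisons. Pfkfb3, which makes the activator of phosphofructokinase, was 69.0, 72.2 and 77.2 CPM (DKO), 68.7, 64.6 and 71.2 CPM (Smarca1 KO) and 63.5, 65.5 and 59.2 CPM (WT). The DKO libraries lay above WT and overlapped with Smarca1 KO. It rose against WT (log2 fold change of 0.22 ± 0.06 SE, adjusted p = 0.0442, edgeR). The rise of Pfkfb3 did not pass with effective-length offsets or with the replicate block (replicate numbers did not pair the samples as a set). Nor did it pass without DKO replicate 2 or 3, Smarca1 KO replicate 1 or any 1 of the WT libraries (0.17 to 0.25 over the 9 omissions). Ldha was 318, 296 and 327 CPM (DKO), 296, 303 and 242 CPM (Smarca1 KO) and 312, 339 and 343 CPM (WT). Its groups overlapped in both DKO comparisons. Ldhb, the form that favours lactate use, stayed within 177 to 200 CPM in all libraries; Pdk1, which shuts pyruvate out of the mitochondrial dehydrogenase, ranged from 34.9 to 48.4 CPM, and Pfkfb4 from 17.8 to 22.7 CPM. None of these 4 passed in any comparison.

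Of the 6 HIF subunits and oxygen sensors, none passed in DKO against Smarca1 KO and 1, Hif1a, fell against WT, with a median of −0.02 in both. Among all genes, 4.39% and 12% passed in these comparisons. Hif1a was 163, 160 and 159 CPM (DKO), 175, 173 and 164 CPM (Smarca1 KO) and 180, 177 and 183 CPM (WT). The DKO libraries lay below all others, and the difference was small against WT (−0.17 ± 0.04 SE, adjusted p = 0.0245, edgeR) and did not pass against Smarca1 KO (−0.09 ± 0.04 SE, adjusted p = 0.252). The fall of Hif1a did not pass without DKO replicate 2 or 3 or any 1 of the WT libraries (−0.18 to −0.16 over the 9 omissions). Hif1a protein is controlled mainly through its stability, which RNA does not measure. Epas1 was 32.0, 27.8 and 28.4 CPM (DKO), 36.3, 25.9 and 29.4 CPM (Smarca1 KO) and 35.5, 34.2 and 32.5 CPM (WT). It was lower in every DKO library than in WT without passing (−0.21 ± 0.11 SE, adjusted p = 0.225), and passed with only the 2 groups fitted (adjusted p = 0.049) and without replicates 1 of DKO and Smarca1 KO (adjusted p = 0.0348). Egln1 (101 to 109 CPM), Egln3 (9.58 to 12.9 CPM), Arnt (60.7 to 68.2 CPM) and Vhl (61.3 to 70.5 CPM) passed in no comparison. Egln3, itself induced by HIF, had a log2 fold change of 0.01 (SE 0.11) in DKO against WT.

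Of the 11 hypoxia-induced genes tested outside glycolysis, 2 fell and none rose in DKO against Smarca1 KO, and 1 rose and 2 fell against WT, with a median of 0.04 in both. Among all genes, 4.39% and 12% passed in these comparisons. Bhlhe40, which encodes the transcriptional repressor DEC1, was 9.15, 7.90 and 8.75 CPM (DKO), 13.1, 12.7 and 11.2 CPM (Smarca1 KO) and 13.4, 15.2 and 14.2 CPM (WT). All DKO libraries lay below all others. Bhlhe40 fell against Smarca1 KO (log2 fold change of −0.52 ± 0.10 SE, adjusted p = 0.0175, edgeR) and against WT (−0.73 ± 0.10 SE, adjusted p = 0.00324). The fall against Smarca1 KO did not pass without DKO replicate 2 or 3 or without Smarca1 KO replicate 2, nor without replicates 1 of both groups or with only the 2 groups fitted.
Ddit4, which encodes the mTORC1 inhibitor REDD1, was 94.0, 100.4 and 104 CPM (DKO), 116, 123 and 114 CPM (Smarca1 KO) and 113, 120 and 114 CPM (WT). The DKO libraries again lay below all others. Ddit4 fell against Smarca1 KO (−0.24 ± 0.05 SE, adjusted p = 0.0258) and against WT (−0.22 ± 0.05 SE, adjusted p = 0.0237). The fall of Ddit4 against Smarca1 KO passed in 3 of 9 omissions, those of DKO replicate 3, Smarca1 KO replicate 3 and WT replicate 2. It did not pass without replicates 1 of both groups, with only the 2 groups fitted or with effective-length offsets. The fall of Ddit4 against WT did not pass without DKO replicate 2 or any 1 of the WT libraries.
Ankrd37 was 3.97, 4.92 and 5.42 CPM (DKO), 3.04, 4.44 and 3.39 CPM (Smarca1 KO) and 2.74, 2.53 and 3.37 CPM (WT), from 73 to 249 counts per library. DKO lay above WT and overlapped with Smarca1 KO. It rose against WT (0.73 ± 0.19 SE, adjusted p = 0.039) and did not pass against Smarca1 KO (0.40 ± 0.19 SE, adjusted p = 0.301). The rise of Ankrd37 did not pass without DKO replicate 2 or 3 or any 1 of the WT libraries (0.62 to 0.85 over the 9 omissions).

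The collagen prolyl hydroxylase gene P4ha1 was 41.8, 38.6 and 43.6 CPM (DKO), 38.7, 34.4 and 33.7 CPM (Smarca1 KO) and 35.0, 33.1 and 37.0 CPM (WT). It was above WT in every DKO library and did not pass (0.24 ± 0.07 SE, adjusted p = 0.057), but passed without Smarca1 KO replicate 1 (adjusted p = 0.0424) or 3 (adjusted p = 0.038). P4ha2 (6.33 to 8.56 CPM) and the mitophagy receptor gene Bnip3 (22.9 to 27.6 CPM) were likewise above WT in every DKO library without passing, with log2 fold changes of 0.22 (SE 0.11) and 0.17 (SE 0.07). Vegfa, the main angiogenic signal under HIF control, was 72.5, 81.3 and 83.4 CPM (DKO), 83.6, 74.8 and 81.8 CPM (Smarca1 KO) and 75.6, 73.2 and 81.2 CPM (WT). Its groups overlapped throughout (log2 fold change of 0.04 ± 0.07 SE, in DKO against WT). Adm, Ero1l (an oxidase of the endoplasmic reticulum), Higd1a (a mitochondrial protein) and Mxi1 (a MYC antagonist) passed in no comparison. Ero1l went the other way from P4ha1, P4ha2 and Bnip3. It was lower in every DKO library (34.5 to 35.9 CPM) than in WT (36.1 to 39.4 CPM). DKO and WT did not overlap for 41.3% of all genes. Car9 stayed at 0.0682 to 0.205 CPM in all 9 libraries.

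**Figure D5:**
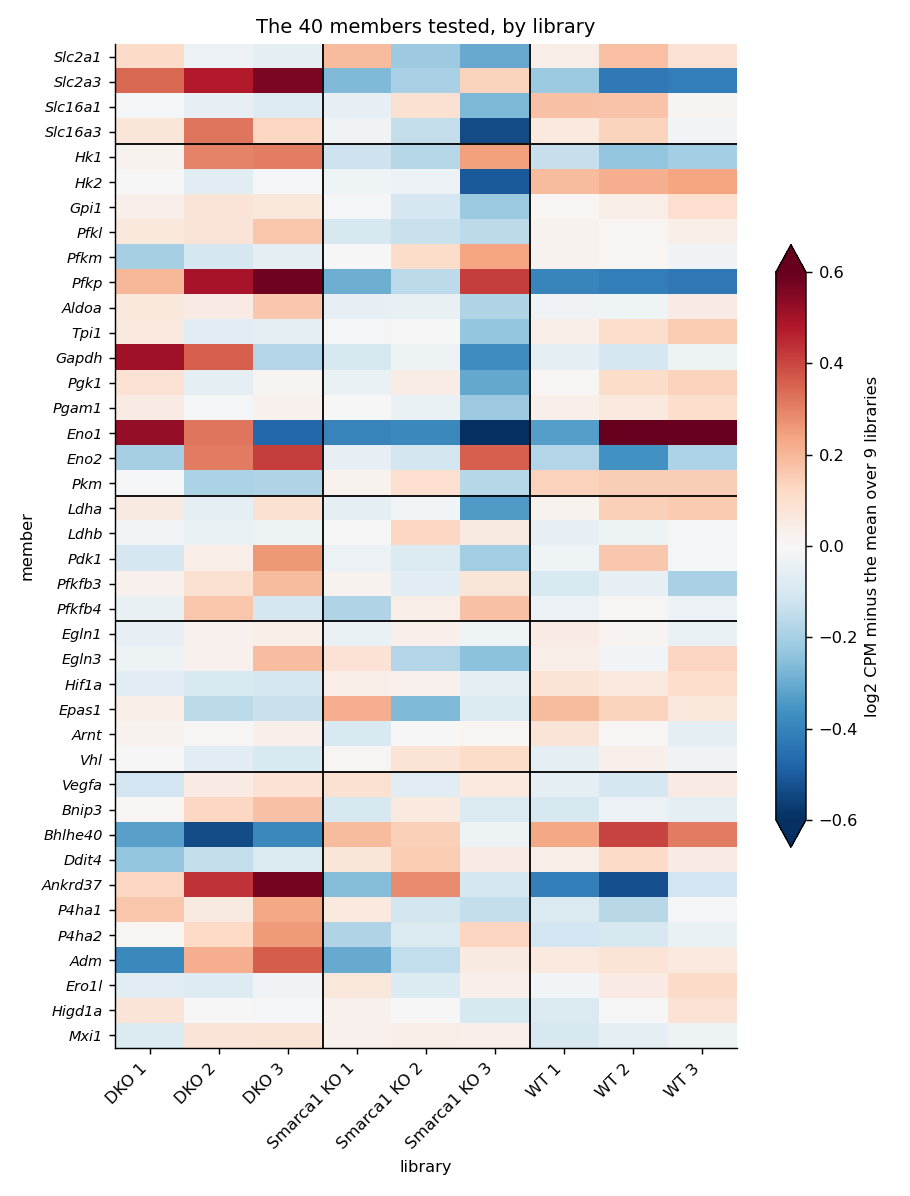
log2 CPM of each tested member (rows, by role) minus its mean over the 9 libraries (columns); colours are capped at −0.6 and 0.6. Smarca1 KO replicate 3 is blue through most glycolytic enzymes and red for Hk1, Pfkm, Pfkp and Eno2, and Slc2a3 and Pfkp are red and Bhlhe40 blue across DKO.

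In Smarca1 KO against WT no member passed. Of the 14 glycolytic enzymes, 10 had a negative log2 fold change, with a median of −0.15 (all genes 0.01). In either direction, 8 (57.1%) were at an unadjusted p under 0.05, against 18.9% of all genes. These 8 include Pfkp, which was higher in Smarca1 KO (0.43 ± 0.16 SE). They also include the uncertain Eno1 (−0.89 ± 0.29 SE), which was −0.17 ± 0.07 SE with its copies summed (adjusted p = 0.244, edgeR). Smarca1 KO replicate 3 was the lowest of the 9 libraries for 16 of the 40 members tested, 9 of them glycolytic enzymes, and it was the highest for Pfkm, Vhl and Pfkfb4. DKO replicate 3 was the highest for 15 members and WT replicate 3 for 11. Without Smarca1 KO replicate 3 the median of the 14 enzymes was −0.08 in Smarca1 KO against WT, and it was 0.12 in place of 0.16 in DKO against Smarca1 KO. DESeq2 called falls of Hk2 (−0.39, adjusted p = 0.026) and Pfkl (−0.16, adjusted p = 0.025) in Smarca1 KO against WT.

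Markers of other and neighbouring cells moved with several of these values. The 10 neuronal markers summed to 5079, 5733 and 5929 CPM (DKO), 5079, 5838 and 6328 CPM (Smarca1 KO) and 5264, 5130 and 4891 CPM (WT). Tubb3, Dcx and Map2 made up most of these sums. Mean CPM in DKO was above WT for these genes and Stmn2. It was below WT for Neurod1, Neurod2, Neurod6, Tbr1, Bcl11b and Sox5. The median log2 fold change of the 10 was −0.05 in DKO against WT (all genes 0.01), so the sum does not stand for every marker. The libraries with the highest neuronal sums, Smarca1 KO replicate 3 and DKO replicate 3, also had the highest values of their groups for Slc2a3, Hk1, Pfkp, Eno2 and the Pkm M1 share; the part of neuronal content in these results was not tested. DKO replicate 1 and Smarca1 KO replicate 1 had the same neuronal sum. Single markers differed both ways between them: Dcx was 1117 against 1012 CPM and Neurod6 302 against 351 CPM. The 2 libraries are therefore not matched for neurons, and their values are given as a description only. In this pair Slc2a3 was 40.2 against 26.4 CPM, Pfkp 124 against 87.8 CPM, Hk1 101 against 91.3 CPM, Eno2 30.0 against 33.2 CPM and the Pkm M1 share 24.2 against 23.5%. In DKO against WT, 1 of the 10 neuronal markers rose and none fell, where 12% of all genes passed.
The 12 radial glia markers summed to 3420, 3286 and 3200 CPM (DKO), 3398, 3525 and 3148 CPM (Smarca1 KO) and 3712, 3792 and 3726 CPM (WT). In DKO against WT 2 of them rose and 5 fell, where 12% of all genes passed. Mean CPM in DKO was above WT for Fabp7 (374 against 318) and Slc1a3 (127 against 94.1), and below WT for the other radial glia markers. Blood markers (10) summed to 882 to 1458 CPM in DKO, 1064 to 1625 CPM in Smarca1 KO and 1397 to 1876 CPM in WT; endothelial markers (10) summed to 214.5 to 297 CPM in DKO, 210.4 to 333 CPM in Smarca1 KO and 257 to 273 CPM in WT. Meningeal markers (10) were highest in DKO replicate 1 (671 CPM) and Smarca1 KO replicate 1 (615 CPM). Microglial markers (10) summed to 55.6 to 71.6 CPM in DKO, 42.4 to 51.2 CPM in Smarca1 KO and 41.03 to 42.8 CPM in WT. Of these, 4 rose in DKO against WT (all genes 12%) and 2 against Smarca1 KO (all genes 4.39%), and none fell. Among blood markers 1 fell in DKO against WT, and no endothelial or meningeal marker passed in either DKO comparison. The part of these cell types in the results of members was not tested.

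Other genes of the same pathways were counted from lists chosen by pathway. Beside each list, 4.39% of all genes passed in DKO against Smarca1 KO, 12% in DKO against WT and 0.336% in Smarca1 KO against WT. Of 23 further glycolysis and lactate genes tested, 1 rose and 1 fell in DKO against each of the other groups, and none passed in Smarca1 KO against WT. The one that fell in both was Aldoc, the aldolase of radial glia and astrocytes, at 66.6, 63.7 and 69.9 CPM (DKO), 119, 126 and 115 CPM (Smarca1 KO) and 122, 140.4 and 122 CPM (WT). No DKO library came near either other group. Aldoc fell against Smarca1 KO (log2 fold change of −0.85 ± 0.07 SE, adjusted p = 0.000204, edgeR) and against WT (−0.94 ± 0.07 SE, adjusted p = 0.000196). Aldoa, its partner isozyme and a member, did not pass (0.18 ± 0.05 SE with adjusted p = 0.0779 against Smarca1 KO, 0.09 ± 0.05 SE with adjusted p = 0.244 against WT). Bpgm, which makes 2,3-bisphosphoglycerate, rose against Smarca1 KO (0.23, adjusted p = 0.0457), and Pgm2l1, which makes glucose 1,6-bisphosphate in brain, rose against WT (0.35, adjusted p = 0.0187).
None of the 14 genes for pyruvate entry into mitochondria passed in any comparison, by edgeR. At an unadjusted p under 0.05 there were 2 in DKO against Smarca1 KO (14.3%, all genes 18.4%), 6 in DKO against WT (42.9%, all genes 31%), and 4 in Smarca1 KO against WT (28.6%, all genes 18.9%). Of 38 further hypoxia-induced genes, DKO against Smarca1 KO called no rise and 1 fall, of Ndrg2 (−0.22, adjusted p = 0.0477). Against WT, 1 rose and 3 fell: Vldlr (0.30, adjusted p = 0.0414), Ndrg2 (−0.24, adjusted p = 0.0194), the placental growth factor gene Pgf (−0.68, adjusted p = 0.0266) and the Notch effector gene Rbpj (−0.21, adjusted p = 0.0367). Of 13 further oxygen sensing genes, Arntl, a clock factor related to Arnt, rose against Smarca1 KO (0.49, adjusted p = 0.0192) and WT (0.56, adjusted p = 0.00832). Hif3a, which encodes a HIF alpha subunit that can inhibit the others, fell against WT (−0.61 ± 0.12 SE, adjusted p = 0.0155), at 19.5, 20.6 and 20.2 CPM (DKO) and 31.4, 31.3 and 29.6 CPM (WT). Hif3a in Smarca1 KO, at 26.7, 21.4 and 17.6 CPM, spanned the DKO values and lay below WT. Of these genes, Aldoc in both comparisons and Arntl against WT passed with each of the 9 libraries left out in turn. Arntl against Smarca1 KO did not pass without DKO replicate 2 or 3 or Smarca1 KO replicate 1 or 2; Hif3a without DKO replicate 3 or any WT library; Pgf, Vldlr and Pgm2l1 without DKO replicate 2 or 3 or any WT library. Ndrg2 against WT did not pass without DKO or WT replicates 2 or 3, Rbpj without any 1 DKO or WT library, and Bpgm and Ndrg2 against Smarca1 KO passed in 1 of 9 omissions each.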

How the data were processed

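The authors deposited 1 transcript table per library, made from RNA-seq reads. The submitters' processing notes name Salmon 1.4.0, the mm10 build and DESeq2. Each deposited table holds estimated counts and TPM per transcript, with its length and effective length as other values, per the file headers. The sources used here do not give the index, annotation release or strand setting. Estimated counts were summed by transcript identifier over GENCODE M21 genes and rounded; 569 of 116546 transcripts did not match. Levels are TMM-scaled CPM; the deposited TPM were summed to genes for levels between genes and for shares.

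Genes were tested with edgeR 4.0.16 (R 4.3.3; filterByExpr, TMM factors 0.991 to 1.02, quasi-likelihood F test, Benjamini-Hochberg adjustment, calls under 0.05) in 1 fit of 9 libraries; SE is the log2 fold change divided by the square root of F. The steps were also run on simulated counts with known folds, drawn independently for each library. Those counts hold no splitting of reads between copies and no deviations shared by libraries, so they are no check for either. A copy shares at least 50% of its own 31-base words with a member. Alternatives were DESeq2 1.42.0 (its test and its size factors), other filters, only the 2 groups compared, effective-length offsets, a replicate block, a Y-linked covariate, libraries left out and copies summed. Same-numbered libraries did not pair as a set. Their correlations of deviations were −0.06 to 0.35, against −0.26 to 0.16 for libraries of unlike number. The 0.35 was that of Smarca1 KO replicate 1 with DKO replicate 1, which did share deviations. Members and lists were chosen with earlier results of these data known. All members are accounted for, every library is given for those that passed, and up to 4 passing genes are named per pathway list and comparison; genes that passed in no comparison but are given by library were picked after their values were seen. Aldoa has a second gene identifier with 69 to 122 counts, left out.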

Additional observations from a re-analysis of the deposited data

How the results depend on the processing

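The count of 4 members in DKO against Smarca1 KO became 0 with only the 2 groups compared, 1 with effective-length offsets, 0 with the Y-linked covariate and 2 without replicates 1 of Smarca1 KO and DKO together; leaving out each library gave 1 to 6. DESeq2 gave 6. The count of 9 in DKO against WT became 0 with the Y-linked covariate, 12 with only the 2 groups compared, 12 without both replicates 1, 10 with DESeq2 and 8 with effective-length offsets, and leaving out each library gave 2 to 11. With that covariate, of all genes, 11 passed in DKO against Smarca1 KO, 6 in DKO against WT, and 57 in Smarca1 KO against WT. The count of 0 in Smarca1 KO against WT became 2 with DESeq2 and 1 (Slc2a1) without both replicates 1, and leaving out each library gave 0. Transcripts of members called numbered 9, 15 and 2 with DESeq2 in the 3 comparisons, and 0 with the replicate block in DKO against WT; leaving out each library gave 0 to 3, 0 to 4 and 0. With the replicate block 4, 8 and 0 members passed, Pfkfb3 being the one lost. No paired call is drawn from it, since numbers did not pair the samples as a set. For these changes the cause was not tested.

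Gapdh reversed to −0.13 in DKO against Smarca1 KO and −0.29 in DKO against WT (adjusted p = 0.0422) with effective-length offsets, and to −0.13 in DKO against WT with copies summed. Eno1 reversed to −0.056 in DKO against Smarca1 KO with copies summed. In DKO against WT, where it was −0.24, it reversed to 0.31 with the Y-linked covariate, and leaving out each library gave −0.51 to 0.0039. Gapdh passed as a rise in DKO against Smarca1 KO (0.59, adjusted p = 0.0215) and against WT (0.50, adjusted p = 0.0297) without DKO replicate 3. Aldoc, and in DKO against WT also Slc2a3, Bhlhe40 and Arntl, passed in 18 of 19 alternatives, all but the Y-linked covariate. Low counts limit Car9, Adm and Ankrd37.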
